A study of Mus musculus with 12 samples.

Results

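The genes described here are 10 genes coding for inhibitory receptors of T cells and their partners, together with a transcription factor of T-cell exhaustion: Pdcd1, Ctla4, Lag3, Havcr2, Cd160, Btla, Entpd1, Cd200, Cd274 and Tox. They were chosen as the probe sets whose deposited gene symbol is one of these names, which gave 17 of 45037 probe sets and 10 of 20962 genes. RNA was measured on 12 Affymetrix arrays of CD8 T cells from 6 male C57BL/6 mice aged 4 weeks, in 4 groups of 3 arrays. Activated KO cells came from mice 4 to 6, in which both floxed alleles of Ezh2 were removed in T cells by a Cre recombinase under a CD4 promoter, and had been cultured for 3 days on plate-bound antibodies. Activated WT cells came from mice 1 to 3, wild type for Ezh2, and had the same culture. Naive KO and naive WT cells were the freshly isolated CD8 cells of the same mice. Because naive and activated arrays came from the same animals and no array holds cells cultured without stimulation, culture and stimulation cannot be told apart. The series description names the antibodies as anti-CD3 and anti-CD28, whereas the sample labels name anti-CD3 and anti-CD38. Anti-CD8 beads were used to take the cells from lymph nodes and spleen, at a stated purity above 93%. In such bulk samples, fewer cells of a type and less RNA per cell cannot be told apart.

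Inhibitory receptors are surface proteins that damp T-cell receptor or costimulatory signals. Many of them are switched on by activation itself, and in chronic infection and tumours several stay on together in exhausted CD8 T cells, a state that depends on the transcription factor Tox. Ezh2 is the methyltransferase of Polycomb repressive complex 2, which marks silenced genes by methylation of histone H3 on lysine 27.

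Values are RMA signals on a log2 scale as the authors deposited them, and a change is the difference of 2 group means with its standard error (SE) in a limma fit over all genes. A gene passed at an adjusted p under 0.05, two-sided. The median signal of an array lay between 0.906 and 0.976, so that signals near 1 are not clearly above the bulk of the probe sets, and no detection calls were used. Signals of different probe sets are not set against each other. Ezh2 gave 2.72 to 3.78 in activated KO cells and 5.26 to 5.56 in activated WT cells, a change of -2.02 ± 0.20 (SE, adjusted p = 4.09e-05). Ezh2 was dim in freshly isolated cells, at 1.95 to 2.18 in naive KO cells and 2.16 to 2.42 in naive WT cells, and its change of -0.20 ± 0.20 did not pass (adjusted p = 0.845). This probe set therefore checks the genotype labels in activated cells only, and where it lies relative to the deleted part of Ezh2 is not stated. As a check of the labelled cell type, the CD8 T-cell markers Cd8a and Cd8b1 had group means from 4.87 to 7.65, far above the array medians. Cd4 had group means from 1.33 to 1.88 and Foxp3 from 1.58 to 1.79, which do not give their amounts relative to Cd8a, since probe sets differ in response.

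Most of these genes differed between activated and naive cells in both genotypes, some upward and some downward. In activated KO cells against naive KO cells, 8 of the 10 genes passed. Cd200, Pdcd1, Cd160, Cd274 and Lag3 rose, while Tox, Ctla4 and Btla fell. In activated WT cells against naive WT cells 6 passed: Cd200, Pdcd1, Cd274 and Cd160 rose, and Tox and Btla fell. Of all genes, 26.7% passed in KO cells (15.8% higher and 10.9% lower) and 26.8% in WT cells (14.8% higher and 11.9% lower). Of the genes passing in WT cells 55.4% were higher, against 66.4% after each array was centred on its median. The median change of the 10 genes was 0.24 in KO cells (-0.02 over all genes) and 0.19 in WT cells (-0.03 over all genes). Between genotypes 1 of the 10 genes passed in each state, and in both it was Ctla4, which was lower in KO. Of all genes, 1.32% passed in activated KO against activated WT cells (0.949% higher and 0.372% lower), and 1.09% in naive KO against naive WT cells (0.62% higher and 0.468% lower). Cd160 alone passed in the difference between the activation responses of KO and WT cells, where 0.868% of all genes passed (0.606% with a higher change in KO and 0.262% with a lower one). Of the 17 probe sets, 13 passed with activation in KO cells (24.6% of all probe sets did) and 8 in WT cells (24% did). Between genotypes 1 passed in activated cells (0.939% of all) and 2 in naive cells (0.879%), and 1 passed for the difference between responses (0.648%).

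**Figure D1:**
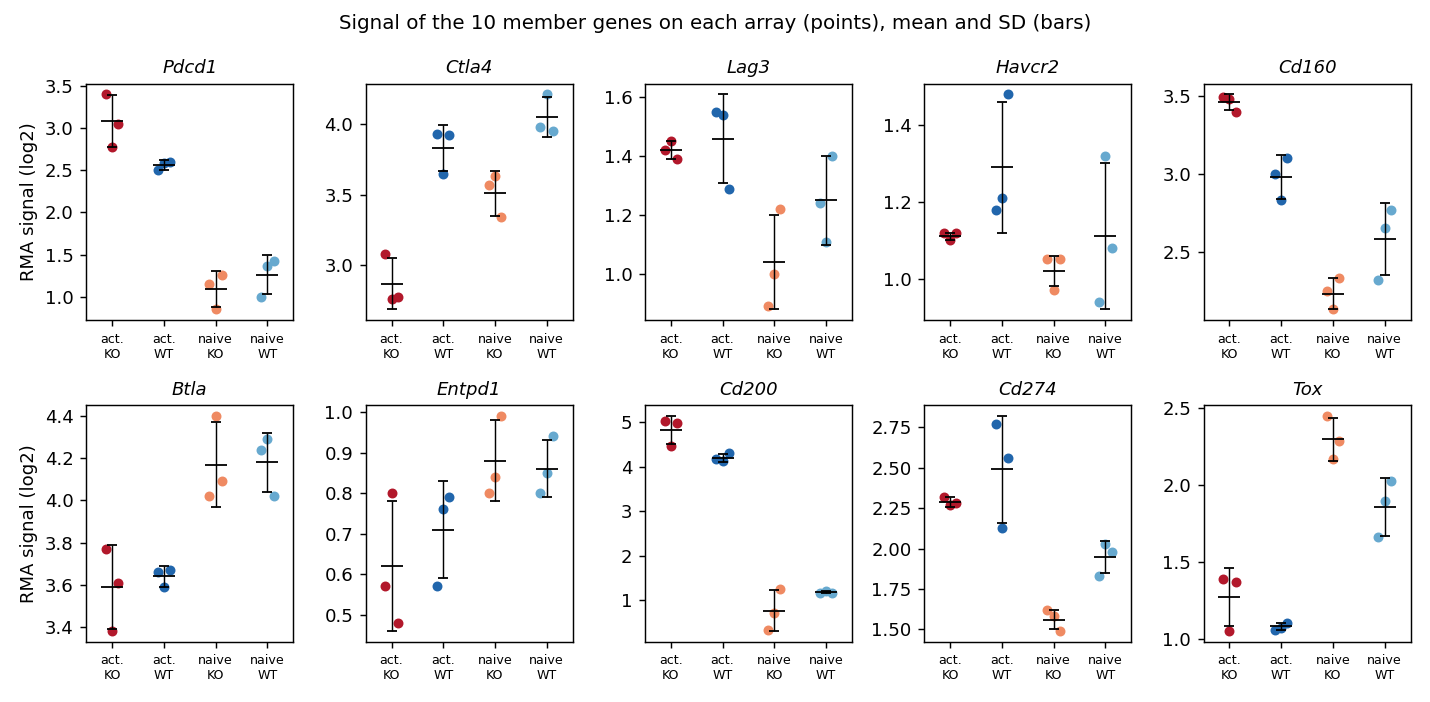
RMA signal (log2) of the 10 genes, with 1 point for each array, the group mean as a horizontal mark and the SD as a bar (n = 3 arrays a group; each panel has its own axis). Groups run from activated KO and activated WT to naive KO and naive WT. Pdcd1 and Cd200 were higher in all activated than in all naive arrays, Tox was lower in them, and Ctla4 was lowest in the 3 activated KO arrays, at 2.76 to 3.08.

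Pdcd1 codes for PD-1, a receptor that recruits phosphatases to dampen antigen receptor and CD28 signals. Its signal was 3.40, 2.78 and 3.05 in activated KO cells and 2.50, 2.58 and 2.60 in activated WT cells. In freshly isolated cells it was 1.15, 0.85 and 1.26 for naive KO and 1.00, 1.36 and 1.42 for naive WT. All activated arrays lay above all naive arrays, all activated KO arrays lay above all activated WT arrays, and the naive groups overlapped. Activated and naive arrays did not overlap in 36.1% of all genes in KO cells and in 42.4% in WT cells. Pdcd1 rose by 1.99 ± 0.15 (SE) in KO cells, with an adjusted p of 6.31e-08, and in WT cells it rose by 1.30 ± 0.15 (adjusted p = 7.04e-06). Its naive signals lay near the array medians, so the exact sizes of these rises are uncertain, and with values floored at the array median the rise in KO cells was 1.95. The activated KO over activated WT change was 0.52, with a 95% interval of 0.20 to 0.84, and missed the threshold (adjusted p = 0.143).

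Ctla4 codes for CTLA-4, which competes with CD28 for the ligands CD80 and CD86, and it was the gene that passed between genotypes. Its signal was 3.08, 2.76 and 2.78 in activated KO cells, against 3.93, 3.65 and 3.92 in activated WT cells. In freshly isolated cells it was 3.57, 3.63 and 3.34 for naive KO, against 3.98, 4.21 and 3.95 for naive WT. KO arrays lay below WT arrays in both states without overlap. The genotypes did not overlap, in either direction, in 14.3% of all genes in activated cells and in 15% in naive cells. In activated cells Ctla4 was lower in KO by 0.96 on the log2 scale, a change of -0.96 ± 0.12 (SE) or 1.94-fold (adjusted p = 0.000462), and it ranked 6 from the lowest change among all genes. Between KO mice 4 and 5 and WT mice 1 and 2, with sample numbers 1 to 8 in the file header, the change was -0.87. Between KO mouse 6 and WT mouse 3 alone, with numbers 9 to 12, it was -1.14. The naive KO over naive WT change was -0.54 ± 0.12, or 1.45-fold lower (adjusted p = 0.0432). That call was lost in 12 of 22 alternatives, among them the omission of any 1 naive array, where the change ran from -0.59 to -0.45 and the adjusted p up to 0.187.

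With activation Ctla4 fell by 0.64 ± 0.12 (SE) in KO cells (adjusted p = 0.000628). In WT cells it changed by -0.21 ± 0.12 without passing (adjusted p = 0.222). The difference between these responses, -0.42 with a 95% interval of -0.78 to -0.07, did not pass either (adjusted p = 0.398), so the fall in KO cells is not shown to differ from the response of WT cells. In the order of levels, naive WT and activated WT cells came first and their difference did not pass, naive KO cells followed, and activated KO cells were lowest. Ctla4 is also abundant in regulatory T cells. Of 8 markers of CD4 and regulatory T cells, none passed between KO and WT cells in either state. Their summed linear signal was 119 to 125 in activated KO and 121 to 142 in activated WT arrays, and 20 to 21.6 in naive KO and 21.6 to 22.3 in naive WT arrays. In activated cells this sum is mostly Il2ra, which activated CD8 T cells also express, with a log2 signal of 6.65 ± 0.05 in activated KO and 6.74 ± 0.11 in activated WT cells (SD, n = 3 each), so it says little of regulatory T cells. Foxp3, the defining factor of regulatory T cells, changed by -0.10 ± 0.12 in activated KO over activated WT cells and by 0.00 ± 0.12 in naive cells. The 8 markers ran from -0.52 to 0.13 in activated cells (median -0.06) and from -0.26 to 0.10 in naive cells (median -0.05). Among them, Ikzf4 had means of 2.59 in activated KO and 3.11 in activated WT cells, and of 1.70 in naive KO and 1.91 in naive WT cells. The part of these cells in the Ctla4 difference was not tested. Of 7 CD8 T-cell markers, 5 were lower in activated KO than in activated WT cells, with a summed signal of 349 to 405 in activated KO and 496 to 506 in activated WT arrays, and their part in the Ctla4 difference was not tested. In naive cells some markers of other cell types were lower in KO than in WT: 5 of 14 for B cells (values given with Btla), 3 of 11 for myeloid cells, with a summed signal of 21.7 to 22.3 in naive KO and 26.4 to 31.1 in naive WT arrays, and 2 of 8 for dendritic cells, with 38.5 to 48.9 in naive KO and 49.4 to 53.7 in naive WT arrays. Of 8 NK-cell markers, 2 were higher and 2 lower in naive KO than in naive WT cells (values given with Cd160). The part of all these in the naive differences of Ctla4 and Tox was not tested.

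Lag3 codes for a CD4-related receptor that binds MHC class II. Its signal was 1.42, 1.45 and 1.39 in activated KO cells and 1.55, 1.54 and 1.29 in activated WT cells, against 0.89, 1.00 and 1.22 in naive KO and 1.24, 1.11 and 1.40 in naive WT cells. Activated KO arrays lay above all naive KO arrays, and the WT groups overlapped. Lag3 rose by 0.38 ± 0.11 (SE) in KO cells (adjusted p = 0.0127), a call lost without the naive array of KO mouse 4 (adjusted p = 0.0645). In WT cells the change was 0.21 ± 0.11 (adjusted p = 0.179). Neither genotype comparison passed, with -0.04 in activated cells (95% interval -0.27 to 0.19) and -0.22 in naive cells (-0.44 to 0.01).

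Havcr2 codes for TIM-3, a receptor of terminally exhausted CD8 T cells. Its signal was 1.12, 1.10 and 1.12 in activated KO cells and 1.18, 1.21 and 1.48 in activated WT cells, against 1.05, 0.97 and 1.05 in naive KO and 0.94, 1.32 and 1.08 in naive WT cells. The naive groups overlapped, activated KO arrays were all slightly lower than activated WT arrays, most values lay close to the array medians, and none of the 5 comparisons passed. The activation changes were 0.09 (95% interval -0.14 to 0.31) in KO cells and 0.18 (-0.05 to 0.40) in WT cells.

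Btla codes for a receptor that, like CD160, binds the TNF receptor family member HVEM (Tnfrsf14). Its signal was 3.77, 3.38 and 3.61 in activated KO cells and 3.66, 3.59 and 3.67 in activated WT cells, against 4.02, 4.40 and 4.09 in naive KO and 4.24, 4.29 and 4.02 in naive WT cells. Activated arrays lay below naive arrays in both genotypes, and KO and WT arrays overlapped in each state. Btla fell by 0.58 ± 0.12 (SE) in KO cells (adjusted p = 0.00139) and by 0.54 ± 0.12 in WT cells (adjusted p = 0.00249). The activated KO over activated WT change was -0.05 (95% interval -0.31 to 0.20), and the naive one -0.01 (-0.27 to 0.24). B cells carry BTLA too. The summed signal of 14 B-cell markers was 35.5 to 40.9 in activated KO and 36.8 to 38.5 in activated WT arrays, against 113 to 154 in naive KO and 319 to 337 in naive WT arrays. Of these markers 8 fell with activation in KO cells, 12 fell in WT cells and 5 were lower in naive KO than in naive WT cells, while Blnk and Ebf1 lay below the array median on all arrays. Their part in the Btla change was not tested.

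Cd160 codes for a glycolipid-anchored receptor of cytotoxic lymphocytes. It is represented by 4 probe sets, which did not move alike. The brightest, 1420067, is marked by the authors as matching the antisense strand. It gave 3.49, 3.48 and 3.40 in activated KO cells and 3.00, 2.83 and 3.10 in activated WT cells, against 2.25, 2.13 and 2.33 in naive KO and 2.32, 2.65 and 2.77 in naive WT cells. The activated KO arrays were highest, and the naive KO and naive WT arrays overlapped. This probe set rose by 1.22 ± 0.11 (SE) with activation in KO cells (adjusted p = 4.94e-07) and by 0.40 ± 0.11 in WT cells (adjusted p = 0.0148). The WT call was lost without antisense-marked probe sets, without the naive array of WT mouse 1 and without the activated array of WT mouse 3, with an adjusted p of up to 0.154. The response of KO cells exceeded that of WT cells by 0.83 ± 0.16 (adjusted p = 0.0206). Between activated KO and activated WT cells it changed by 0.48 ± 0.11 without passing (adjusted p = 0.0514). It passed under 4 of 22 alternatives, among them the omission of the naive array of WT mouse 1 or 3, with an adjusted p down to 0.0236. NK cells also carry CD160, and the summed signal of 8 NK-cell markers was 29 to 33.1 in activated KO and 21.6 to 24.8 in activated WT arrays, against 57.4 to 110 in naive KO and 55.1 to 60.9 in naive WT arrays. The naive sums hold opposite changes: Klra8 (3.43 ± 0.27) and Eomes (2.63 ± 0.18) were higher, and Tyrobp (-2.49 ± 0.15) and Fcer1g (-0.64 ± 0.12) lower, in naive KO than in naive WT cells. Ncr1 lay below the array median on all arrays, 1 of the 8 markers (Eomes, which CD8 T cells also express) was higher in activated KO than in activated WT cells, and their part in the Cd160 values was not tested.

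The sense probe sets of Cd160 were fitted with all probe sets. Probe set 1420066 rose by 1.16 ± 0.11 (SE) in KO cells and by 0.67 ± 0.11 in WT cells, and the difference of 0.50 ± 0.16 between these responses did not pass (adjusted p = 0.283). Probe set 1420396 rose by 0.64 ± 0.13 in KO cells, while its changes of 0.27 in WT cells and 0.37 between the responses did not pass. Probe set 1456847 went the other way and fell by 0.37 ± 0.12 in KO cells (adjusted p = 0.0286), with -0.26 in WT cells (adjusted p = 0.122). The call of a larger response in KO cells therefore rests on the antisense-marked probe set, while 2 of the 3 sense probe sets differed in the same direction without passing. That call was lost in 8 of 21 alternatives, which were the mean over all probe sets of a gene, the omission of antisense-marked probe sets, a floor at the array median, and the omission of the naive array of WT mouse 2 or 3 or KO mouse 5 or of the activated array of WT mouse 2 or KO mouse 5. The adjusted p rose to 0.543 at most. Between activated KO and activated WT cells the sense probe sets changed by 0.17 (1420066), 0.10 (1420396) and -0.22 (1456847) without passing.

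**Figure D2:**
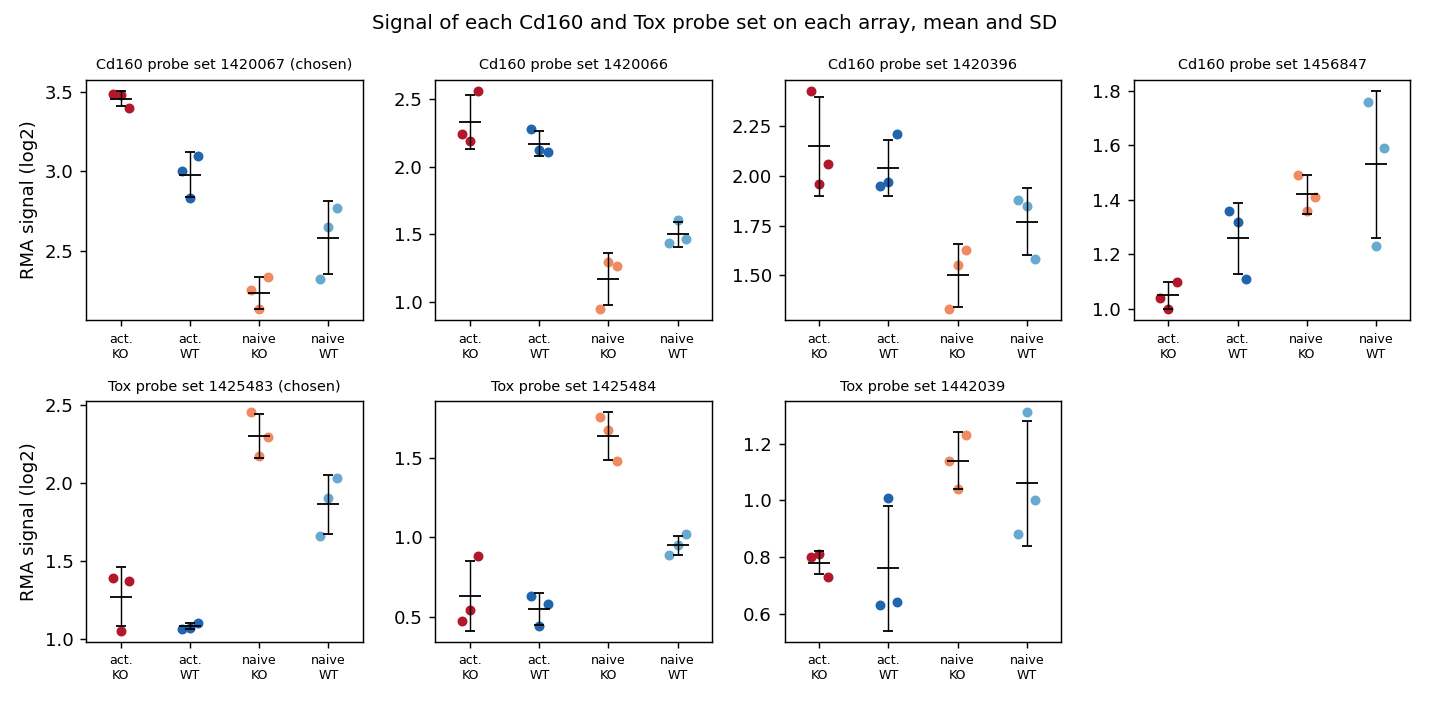
RMA signal (log2) of each Cd160 and Tox probe set, with 1 point for each array, the mean as a horizontal mark and the SD as a bar (n = 3 arrays a group). The Cd160 panels show the higher activated KO arrays in probe set 1420067 and the lower ones in 1456847. The Tox panels show naive KO arrays above naive WT arrays in probe sets 1425483 and 1425484 and overlapping groups in 1442039.

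Entpd1 and Cd200 code for surface proteins that act on other cells. Entpd1 (CD39) breaks down extracellular ATP and marks terminally exhausted CD8 T cells. Its 3 probe sets lay above the array median on 0, 0 and 1 of the 12 arrays, and no comparison passed for any of them. The chosen probe set gave 0.57, 0.80 and 0.48 in activated KO cells and 0.57, 0.76 and 0.79 in activated WT cells, against 0.80, 0.84 and 0.99 in naive KO and 0.80, 0.85 and 0.94 in naive WT cells. The activation change in KO cells was -0.26 ± 0.10 (adjusted p = 0.0664), and it passed with robust variances or without the activated array of KO mouse 5. It also passed with a floor at the array median. That floor replaces nearly all values of this probe set by the array median itself, so the pass says nothing of Entpd1. So dim a signal limits what could be detected of Entpd1.

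Cd200 codes for a glycoprotein that inhibits myeloid cells through the receptor CD200R, and it had the largest rise of the 10 genes. Its signal was 5.02, 4.45 and 4.98 in activated KO cells and 4.17, 4.13 and 4.30 in activated WT cells. In freshly isolated cells it was 0.34, 0.71 and 1.26 for naive KO and 1.17, 1.21 and 1.17 for naive WT. Activated arrays stood far above naive arrays, and activated KO above activated WT arrays, while the naive KO arrays were scattered around the naive WT arrays and near or below the array median. Cd200 rose by 4.05 ± 0.18 (SE) in KO cells, with an adjusted p of 2.94e-10. In WT cells it rose by 3.01 ± 0.18, with an adjusted p of 7.23e-09. With naive signals near or below the array medians, the exact sizes of both rises are uncertain, and with values floored at the array median the rise in KO cells was 3.75. Between activated KO and activated WT cells it changed by 0.62 (95% interval 0.23 to 1.01) without passing (adjusted p = 0.153). It passed without the naive array of KO mouse 6, where the adjusted p was 0.0464. The difference between the responses was 1.03 (95% interval 0.48 to 1.59) and did not pass (adjusted p = 0.0944). It passed with robust variances and without the naive array of KO mouse 6 or the activated array of KO mouse 5, with an adjusted p down to 0.00954.

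Cd274 codes for PD-L1, the ligand of PD-1, which T cells also display after activation. Its signal was 2.32, 2.27 and 2.28 in activated KO cells and 2.77, 2.13 and 2.56 in activated WT cells, against 1.62, 1.58 and 1.49 in naive KO and 1.83, 2.03 and 1.98 in naive WT cells. It rose by 0.73 ± 0.13 (SE) in KO cells (adjusted p = 0.00035) and by 0.54 ± 0.13 in WT cells (adjusted p = 0.00443). Naive KO arrays lay below naive WT arrays without overlap, and that change of -0.39 ± 0.13 did not pass (adjusted p = 0.238).

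Tox codes for a DNA-binding protein of the high mobility group that holds exhausted CD8 T cells in their state. Its chosen probe set, 1425483, gave 1.39, 1.05 and 1.37 in activated KO cells and 1.06, 1.07 and 1.10 in activated WT cells, against 2.45, 2.17 and 2.29 in naive KO and 1.66, 1.90 and 2.03 in naive WT cells. Activated arrays lay below naive arrays in both genotypes, and naive KO arrays lay above naive WT arrays. Tox fell by 1.03 ± 0.11 (SE) in KO cells, 2.05-fold (adjusted p = 3.94e-06), and by 0.79 ± 0.11 in WT cells, 1.72-fold (adjusted p = 7.25e-05). Its activated signals lay near the array medians, so the exact sizes of these falls are uncertain. The difference between the responses was -0.25 ± 0.16 and did not pass (adjusted p = 0.703). The naive KO over naive WT change of 0.44 ± 0.11 did not pass (adjusted p = 0.1), but passed as a mean over the probe sets (adjusted p = 0.022). In the fit over all probe sets, 0.879% of which passed in naive cells, probe set 1425484 of Tox did pass: it gave 1.76, 1.68 and 1.48 in naive KO cells, against 0.89, 0.95 and 1.02 in naive WT cells, a change of 0.69 ± 0.11 (adjusted p = 0.0046). Probe set 1442039 changed by 0.07 ± 0.12 (adjusted p = 0.936). With activation, probe set 1425484 fell by 1.01 ± 0.11 in KO cells and by 0.40 ± 0.11 in WT cells. Probe set 1442039 fell by 0.35 ± 0.12 in KO cells, and its change of -0.31 ± 0.12 in WT cells did not pass (adjusted p = 0.0816). All 3 Tox probe sets carry the authors' note on possible cross-hybridization, as do the chosen probe sets of Pdcd1, Cd200 and Lag3. Of the other TOX family genes, Tox2 fell with activation by 0.45 ± 0.08 in KO cells and by 0.52 ± 0.08 in WT cells, Tox4 rose by 0.59 ± 0.17 in KO cells and by 0.60 ± 0.17 in WT cells, and neither passed between genotypes. The Tox4 rises were lost in 4 of 22 alternatives for KO cells and 3 of 22 for WT cells.

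**Figure D3:**
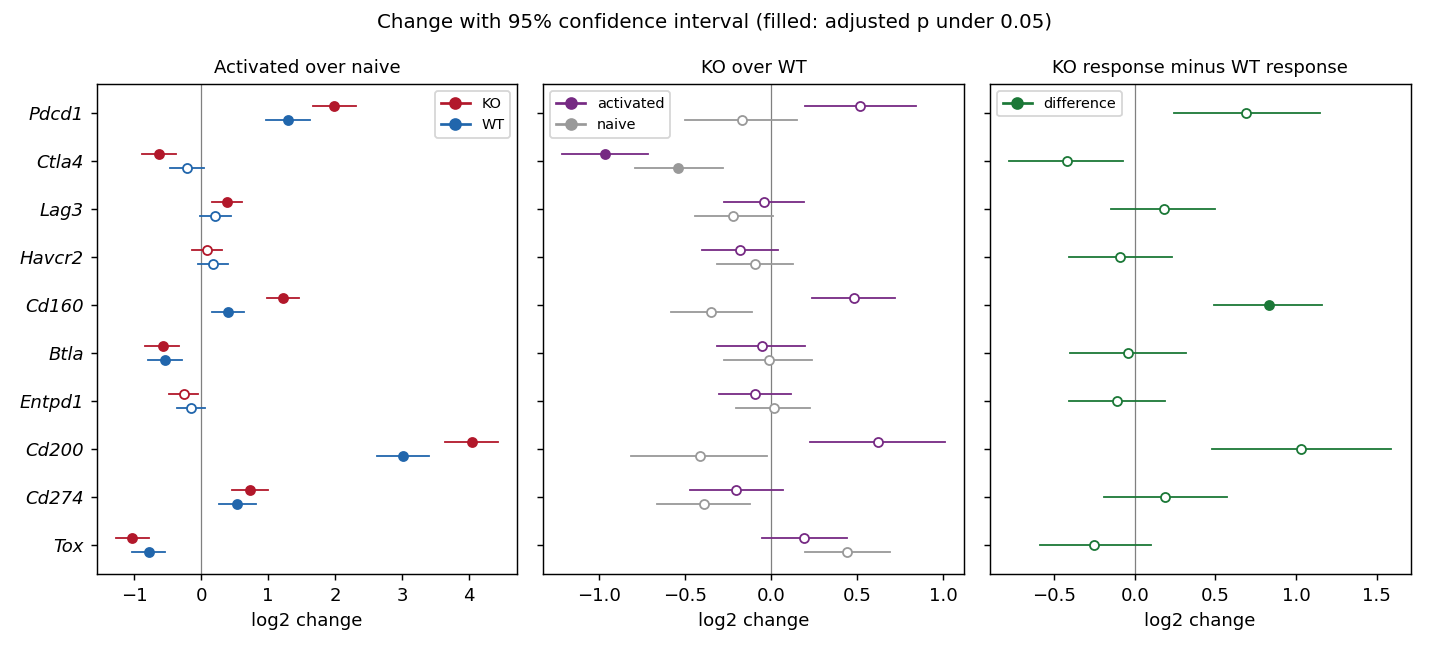
Log2 change of each gene with its 95% confidence interval (line) in the limma fit, with filled points for an adjusted p under 0.05. The left panel gives activated over naive cells in KO (red) and WT (blue), the middle panel KO over WT in activated (purple) and naive (grey) cells, and the right panel the KO minus the WT activation response. Filled points lie on both sides of 0 on the left, at Ctla4 in the middle (-0.96 and -0.54) and at Cd160 on the right (0.83).

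Each mouse gave a naive and an activated array, so the response was also taken within each mouse. Cd200 rose by 4.68, 3.74 and 3.72 in the KO mice, against 3.00, 2.92 and 3.12 in the WT mice. The responses of KO mice 4 and 5 start from naive Cd200 signals of 0.34 and 0.71, below the array median, and with values floored there the difference between KO and WT responses was 0.74 and did not pass (adjusted p = 0.247). Pdcd1 rose by 2.25, 1.93 and 1.79 in the KO mice, against 1.50, 1.21 and 1.18 in the WT mice. Cd160 rose by 1.25, 1.35 and 1.08 in the KO mice, against 0.68, 0.19 and 0.32 in the WT mice. For these 3 of the 10 genes every KO mouse responded more than every WT mouse. No gene had every KO mouse below every WT mouse, and the other 7 overlapped. Over all genes, the mice did not overlap in 14.6% and KO lay above WT in 8.31%, and of the 3 genes only Cd160 passed in the test of the difference.

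**Figure D4:**
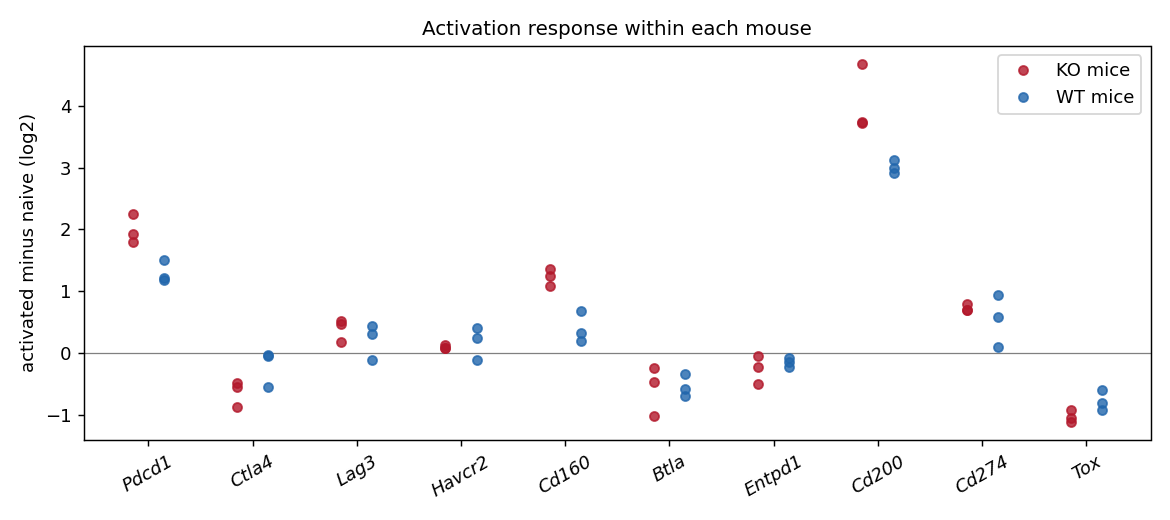
Activated minus naive signal (log2) within each mouse, with 1 point for each of the 3 KO mice (red) and the 3 WT mice (blue) per gene. KO points lie above WT points for Pdcd1, Cd160 and Cd200, and the groups overlap in the other 7 genes.

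The 250 bases before the annotated start of the genes with the largest rises and of the gene that differed between genotypes are shown because Pdcd1 and Cd200 rose with activation while Ctla4 did not. Sequences are those of RefSeq for GRCm38.p6, 5′ to 3′ on the strand of the gene, and capitals mark the letters GGAAA (the core of NFAT sites) found on either strand (TTTCC where it lies on the opposite one). The other motifs searched on both strands, TGANTCA (AP-1) and GGTGTGA (a T-box half-site), had no match in these 3 windows, and none of the matches shown overlapped another.
Pdcd1, chr1:94052554-94052803, minus strand: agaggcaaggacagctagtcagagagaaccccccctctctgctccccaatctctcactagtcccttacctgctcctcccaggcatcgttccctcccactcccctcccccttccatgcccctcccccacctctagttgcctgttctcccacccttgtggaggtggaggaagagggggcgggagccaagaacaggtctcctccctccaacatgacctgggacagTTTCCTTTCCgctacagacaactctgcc
Cd200, chr16:45409054-45409303, minus strand: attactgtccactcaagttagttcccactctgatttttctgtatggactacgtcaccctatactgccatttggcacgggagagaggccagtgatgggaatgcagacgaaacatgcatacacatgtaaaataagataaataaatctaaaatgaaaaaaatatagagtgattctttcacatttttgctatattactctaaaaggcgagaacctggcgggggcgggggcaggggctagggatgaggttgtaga
Ctla4, chr1:60908775-60909024, plus strand: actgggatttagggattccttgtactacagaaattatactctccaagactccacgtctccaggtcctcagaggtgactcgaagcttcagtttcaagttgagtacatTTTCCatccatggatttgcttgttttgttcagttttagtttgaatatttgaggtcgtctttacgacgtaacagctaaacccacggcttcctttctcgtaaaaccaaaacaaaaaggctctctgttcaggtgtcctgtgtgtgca
The Pdcd1 window held 2 matches to GGAAA side by side, the Ctla4 window 1 and the Cd200 window 0, whereas 55.6% of all 32851 windows of this length hold at least 1. TGANTCA occurs in 6.75% of all windows and GGTGTGA in 3.33%. Windows were given for 8 of the 10 genes, 10 windows in all, of which 5 held GGAAA, 1 (Havcr2) TGANTCA and 1 (Cd160) GGTGTGA. The windows held 3 CG dinucleotides for Pdcd1, 6 for Cd200 and 7 for Ctla4, against a median of 6 over all windows and a range of 2 (Havcr2) to 18 (Entpd1) among the genes described. These are descriptions of letters in one window and say nothing of binding.

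Ligands and partners of these receptors were followed as a list of 13 genes, all measured. With activation 4 rose and 3 fell in KO cells, and 3 rose and 3 fell in WT cells. Pdcd1lg2, which codes for PD-L2, rose by 1.99 ± 0.12 (SE) in KO cells and by 1.94 ± 0.12 in WT cells. Tnfsf14, which codes for the HVEM ligand LIGHT, rose by 1.46 ± 0.11 in KO cells and by 1.20 ± 0.11 in WT cells. Cd80 rose by 1.02 ± 0.13 in KO cells and by 1.04 ± 0.13 in WT cells. Naive signals of these 3 genes lay near or below the array medians, so the exact sizes are uncertain, and with values floored at the array median Pdcd1lg2 rose by 1.56 in KO cells and by 1.46 in WT cells. Cd86 fell by 0.43 ± 0.13 in KO cells and by 0.58 ± 0.13 in WT cells, and Cd48 fell by 1.01 ± 0.13 in KO cells and by 1.19 ± 0.13 in WT cells. Lgals9, which codes for galectin-9, fell by 1.36 ± 0.16 and Nt5e, which codes for the AMP-degrading CD73, rose by 0.35 ± 0.12 in KO cells, and Ceacam1 fell by 0.41 ± 0.11 in WT cells. None of the 13 passed between genotypes in either state or in the difference between the responses. The Cd80 calls were lost without probe sets noted for cross-hybridization, that of Cd86 in KO cells in 5 of 22 alternatives, that of Nt5e in 13 and that of Ceacam1 in 2.

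Other inhibitory receptors formed a list of 16 genes, of which 13 were measured. In KO cells 4 rose and 5 fell with activation, and in WT cells 4 rose and 6 fell. Klrc1, which codes for NKG2A, rose by 2.09 ± 0.17 (SE) in KO cells and by 1.74 ± 0.17 in WT cells. The prostaglandin receptor gene Ptger4 rose by 1.82 ± 0.14 in KO cells and by 1.05 ± 0.14 in WT cells, and Ptger2 by 1.35 ± 0.15 in KO cells and by 0.82 ± 0.15 in WT cells. Cd5 rose by 0.91 ± 0.11 in KO cells and by 0.55 ± 0.11 in WT cells. Cd96 fell by 1.47 ± 0.16 in KO cells and by 1.62 ± 0.16 in WT cells, and Vsir, which codes for VISTA, by 1.36 ± 0.16 in KO cells and by 1.48 ± 0.16 in WT cells. Klrg1 fell by 0.72 ± 0.13 in KO cells and by 0.87 ± 0.13 in WT cells, and Pecam1 by 0.64 ± 0.10 in KO cells and by 1.08 ± 0.10 in WT cells. Lair1, a collagen receptor, fell by 0.70 ± 0.11 in KO cells and by 0.64 ± 0.11 in WT cells. Activated signals of Klrg1 and Lair1 lay below the array medians, with group means from 0.47 to 0.66, and naive signals of Ptger2 lay near them. The exact sizes of the changes of these genes are therefore uncertain. Between genotypes Ptger2 was higher in activated KO than in activated WT cells (0.67 ± 0.15, adjusted p = 0.0385), and Pecam1 was lower in naive KO than in naive WT cells (-0.53 ± 0.10, adjusted p = 0.0193). These 2 calls were lost in 10 and 5 of 21 alternatives, among them the omission of single arrays, with an adjusted p of up to 0.179 and 0.104.

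Transcription factors associated with exhaustion or its precursors formed a list of 20 genes, all measured. Of these, 3 were higher and none lower in activated KO than in activated WT cells, and 3 were higher and 2 lower in naive KO than in naive WT cells. Eomes, a T-box factor of memory and exhausted CD8 T cells, was higher in KO by 1.01 ± 0.18 (SE) in activated cells (adjusted p = 0.00892) and by 2.63 ± 0.18 in naive cells (adjusted p = 5.83e-07). The call in activated cells was lost with values floored at the array median (adjusted p = 0.091). All Eomes signals were 1.98 or higher, so the floor changed none of them. It acted on this call only through the variances and adjustment shared with other genes. Nr4a2, an orphan nuclear receptor induced by antigen receptor signals, was higher by 0.46 ± 0.10 in activated cells and by 0.63 ± 0.10 in naive cells. Id2, an inhibitor of E proteins, was higher by 0.68 ± 0.15 in activated KO than in activated WT cells and lower in naive KO than in naive WT cells (-0.95 ± 0.15). In activated cells the Nr4a2 call was lost in 13 and the Id2 call in 12 of 22 alternatives, with an adjusted p of up to 0.167 and 0.186. In naive cells Myb was also higher in KO, by 1.70 ± 0.13, and Bhlhe40 was lower (-0.77 ± 0.14), a call lost in 3 of 22 alternatives. With activation 7 of the 20 rose and 5 fell in KO cells, and 10 rose and 6 fell in WT cells. Irf4 rose by 2.47 ± 0.16 in KO cells and by 2.83 ± 0.16 in WT cells, and Bhlhe40 by 2.87 ± 0.14 in KO cells and by 1.95 ± 0.14 in WT cells. Nr4a3 rose by 1.97 ± 0.12 in KO cells and by 1.61 ± 0.12 in WT cells. Tcf7, which codes for the stem-like factor TCF-1, fell by 1.56 ± 0.10 in KO cells and by 1.66 ± 0.10 in WT cells, where Id2 fell too, by 1.62 ± 0.15. Nfatc2 fell by 0.36 ± 0.12 in KO cells and by 0.43 ± 0.12 in WT cells, and Tox2 fell in both genotypes. Myb fell by 0.43 ± 0.13 in KO cells and rose by 0.81 ± 0.13 in WT cells. With the mouse as a block the Nfatc2 fall in KO cells did not pass (adjusted p = 0.0777), and it was lost in 8 of 22 alternatives in KO cells and 3 of 22 in WT cells. The Myb fall was lost in 3 of 22, which were the mean over probe sets and the omission of the naive array of KO mouse 5 or the activated array of KO mouse 4 (adjusted p up to 0.0896). Eomes changed by -0.87 ± 0.18 with activation in KO cells and by 0.75 ± 0.18 in WT cells. This difference passed (-1.62 ± 0.25, adjusted p = 0.00381), but not with values floored at the array median (adjusted p = 0.0659), which again changed no Eomes signal. Also passing were the differences of Myb (-1.25 ± 0.18), Id2 (1.63 ± 0.22) and Bhlhe40 (0.92 ± 0.19). With the mouse as a block the Bhlhe40 difference did not pass (adjusted p = 0.107), and it was lost in 13 of 21 alternatives.

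Genes of inhibitory signalling and anergy formed a list of 16, all measured. With activation 4 rose and 7 fell in KO cells, and 4 rose and 4 fell in WT cells. Beside the early growth response genes, Ptpn11 rose by 0.73 ± 0.12 (SE) in KO cells and by 0.55 ± 0.12 in WT cells, Grap by 0.57 ± 0.14 in KO cells and Ptpn2 by 0.59 ± 0.16 in WT cells. The Ptpn2 rise was lost as a mean over probe sets and without the naive array of WT mouse 3 (adjusted p up to 0.0686). The early growth response genes Egr2 and Egr3 rose by 3.18 ± 0.13 and 2.85 ± 0.14 (SE) in KO cells and by 2.64 ± 0.13 and 2.35 ± 0.14 in WT cells. Egr3 had means of 1.05 in naive KO and 1.27 in naive WT cells, near the array medians, so the exact sizes of its rises are uncertain. Over the alternatives these were as low as 1.51 in KO cells and 1.27 in WT cells. Dgka, which codes for a diacylglycerol kinase, fell by 2.01 ± 0.10 in KO cells and by 1.99 ± 0.10 in WT cells. Cd247, which codes for the zeta chain of the antigen receptor complex, fell by 0.95 ± 0.10 in KO cells and by 0.92 ± 0.10 in WT cells. Csk, a kinase that holds Lck inactive, fell by 0.66 ± 0.12 in KO cells and by 0.66 ± 0.12 in WT cells. Cblb, a ubiquitin ligase that raises the threshold of T-cell activation, fell by 2.52 ± 0.14 in KO cells and by 1.56 ± 0.14 in WT cells. Over the alternatives its change ran from -2.65 to -0.75 in KO cells and from -1.66 to -0.08 in WT cells. Cblb was the only gene of the 16 that passed in activated KO against activated WT cells (-0.78 ± 0.14, adjusted p = 0.0105), and its responses differed (-0.96 ± 0.20, adjusted p = 0.0308). These calls were lost in 2 of 22 alternatives, among them the omission of the activated array of WT mouse 1, and in 9 of 21, and the fall in WT cells was lost as a mean over probe sets (-0.08). Sh2d1a, which codes for the adaptor SAP, was higher in naive KO than in naive WT cells by 0.99 ± 0.12 (adjusted p = 0.000567), and its responses differed by -0.82 ± 0.18 (adjusted p = 0.039). With the mouse as a block the difference of Sh2d1a did not pass (adjusted p = 0.0923), and it was lost in 14 of 20 alternatives.

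The genes whose profile over the 12 arrays lay nearest to passing genes other than Cd274 were found by the root mean square (RMS) difference of signals after each gene was centred on its own mean. Mki67 and Chst2 lay nearest to Cd200, at 0.21 and 0.28 log2 units, whereas Cd200 itself varied by 1.80 about its mean. For Pdcd1, which varied by 0.86, they were Slc6a6 (0.19) and Hyou1 (0.20). For Ctla4, which varied by 0.46, they were Irf1 (0.17) and Samhd1 (0.19), and for Cd160 Abi2 and S100a10 (0.16 each). For Tox they were Dnah8 (0.15) and Baiap3 (0.16), and for Btla Ptbp3 (0.07) and Coro1b (0.11). For Lag3 they were Rab5c and Mrap (0.09 each). These are descriptions over arrays that share groups and animals.

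The authors' deposited table selects probe sets by an unadjusted p and a ratio. Of the 17 probe sets, the authors' deposited table selected 11 in activated KO over naive KO cells, 7 in activated WT over naive WT cells, 2 in activated KO over activated WT cells, 3 in naive KO over naive WT cells and 2 for the interaction. The share selected among all probe sets was not counted, so these counts cannot be called high or low. In the authors' deposited table the Ctla4 ratio of activated KO over activated WT cells is 0.514, and the ratio of naive KO over naive WT cells is 0.69. The selections between genotypes in the authors' deposited table hold Ctla4 and Cd160 in activated cells and Ctla4 and 2 probe sets of Tox in naive cells. For Cd160 only the antisense-marked probe set 1420067 was selected there, and none of its sense probe sets. The interaction selections were the same Cd160 probe set (ratio 1.77) and Tox probe set 1425484 (ratio 0.652).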

How the data were processed

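RNA of CD8 T cells was amplified by a Nugen whole-transcriptome kit for small samples and hybridized to Affymetrix perfect-match arrays, per the labels' protocols. The log2 values were made by the authors with RMA on perfect-match probes, per the file headers (no version stated). The deposited ratio and fold columns and the authors' p-values were only copied, and the pairwise p columns are of unit other, per the file headers. Of 45141 probe sets 104 controls were left out. For each of 20962 genes the probe set brightest on average over the 12 arrays was kept.

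A limma fit (version 3.58.1, R 4.3.3; lmFit, contrasts.fit, eBayes) covered the 4 groups, with Benjamini-Hochberg adjustment over all genes, 2-sided, and a second fit covered all 45037 probe sets. The fit was tested on simulated data with independent normal noise, for naive KO over naive WT cells. Changes of 0.5 were recovered in 30 of 50 genes, of 1 or -1 in 49 of 50 each and of 2 in 50 of 50, with 6 false calls. No effect of mouse or sample number was simulated. Named were the 10 genes and, of each other list and comparison, the 4 passing genes with the largest change and all passing genes of a direction with at most 5. The genes and lists were chosen with earlier results of these data known. Naive and activated arrays of a mouse share an animal, per the labels. The deviations of the 2 arrays from their group means correlated across genes by 0.04, -0.10 and 0.05 in WT mice 1 to 3 and by 0.13, -0.05 and 0.07 in KO mice 4 to 6. Within-group Pearson correlations of arrays ran from 0.982 to 0.993. Symbols were updated and promoters read from RefSeq tables of GRCm38.p6; the array annotation names no build. Alternatives changed the filter, variance model, arrays fitted, probe set choice, scaling, floor, mouse block and arrays left out. Precision is limited by the number of arrays.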

Additional observations from a re-analysis of the deposited data

Results flagged for a closer look

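The activation response of Cd160 was larger in KO than in WT cells by 0.83 on the log2 scale in the test of that difference (adjusted p = 0.0206). It rose by 1.25, 1.35 and 1.08 in the KO mice, against 0.68, 0.19 and 0.32 in the WT mice. The probe set is marked antisense, and the 3 sense probe sets gave differences of 0.50, 0.37 and -0.11 that did not pass.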

How the results depend on the processing

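Of the 50 changes (10 genes in 5 comparisons), 17 passed and 13 of these passed under every alternative run. The other 4 were Ctla4 in naive cells, Lag3 with activation in KO cells, and Cd160 with activation in WT cells and between responses. Of the 33 that did not pass, 27 passed under no alternative. Of 103 passing changes of other listed genes and Ezh2, 71 passed under every alternative and 32 were lost under at least 1. The causes were not tested, except where an alternative leaves fewer genes or arrays. Without probe sets noted for cross-hybridization, 6 of the 10 genes were measured, of which 4 passed with activation in KO cells and 3 in WT cells. In naive KO against naive WT cells, where 1 gene passed, 0 passed with robust variances and an intensity trend, 0 with only the 6 arrays compared and 0 with values floored at the array median, and 2 passed as means over probe sets. At an unadjusted p under 0.05 limma gave 2008, 2070 and 1666 of all genes in those 3 fits, and over all alternatives the Ctla4 change ran from -0.59 to -0.45. In activated KO against activated WT cells 2 passed when genes dimmer than the overall median were left out, and 2 with the sample-number set as a term, an alternative chosen after seeing the data. For the difference between responses 2 passed with robust variances, and 0 as means over probe sets, without antisense-marked probe sets or with the floor. Of the 17 probe sets fitted with robust variances, 1 passed in naive cells and 0 for the difference between responses. With single arrays left out, the genes passing ranged from 0 to 1 in naive cells, from 1 to 2 in activated cells and from 0 to 2 between responses, and the probe sets from 1 to 2, 1 to 2 and 0 to 2. Changes of the 10 genes that turned sign lay near 0 and did not pass. With single arrays left out, Lag3 ranged from -0.12 to 0.00 in activated KO over activated WT cells. Havcr2 ranged from -0.18 to 0.01 in naive cells and from -0.19 to 0.01 between responses. Btla ranged from -0.13 to 0.06 in naive cells, from -0.14 to 0.05 in activated cells and from -0.13 to 0.08 between responses, and Entpd1 from -0.04 to 0.05 in naive cells. With the floor Entpd1 was at 0.00 both in activated KO over activated WT cells and between responses. Of the other listed genes, the rise of Zeb2 in WT cells, which passed, turned sign and became -0.03 as a mean over probe sets. With the replicate block (the mouse), 8, 6, 1, 1 and 1 of the 10 genes passed, as without it. Of the 103 passing changes of other listed genes and Ezh2, the block lost Cd38 in WT cells (adjusted p = 0.0723), Nfatc2 (0.0777) and Nr4a1 (0.0598) in KO cells, and the differences of Bhlhe40 and Sh2d1a, and no others, and Nfatc1 passed in KO cells only with it (0.0373). Of 85 passing changes of cell-type markers it lost 4, among them the fall of the B-cell marker Cr2 in WT cells (0.0523), and 5 others passed with it. With the floor, genes below the median on every array all take the same values. Such genes pass or fail together, so counts with the floor are not counts of separate responses. For genes above the median on every array, such as Ctla4 and Eomes, the floor changes no value. Their calls can then change only through the variances and adjustment shared over genes. Genes passing among all genes numbered 12234 in KO and 12658 in WT cells with the floor, against 5595 and 5612, and 3279 and 3225 without noted probe sets. In activated KO against activated WT cells they numbered 134 with the floor, 166 without noted probe sets, 153 with the 6 arrays compared and 147 to 316 with single arrays left out, against 277. In naive cells they numbered 147, 128 and 139 to 290 in the floored, noted and left-out fits, against 228, and between responses 120, 95 and 122 to 234, against 182. Signals near the array median limit what could be seen of Entpd1 and Havcr2.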
